A study of Ovis aries with 23 samples.

Results

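Ventricular muscle far from a myocardial infarct, called remote muscle, was compared with the muscle of sham-operated hearts in sheep, with fetuses and adolescents pooled. The comparison used 11 of the 23 arrays. These were 6 remote arrays, 3 fetal and 3 adolescent, and 5 sham arrays, 3 fetal and 2 adolescent. They were chosen by their titles alone, and the developmental stage was held as a covariate, so that the difference is an average over both stages.

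The fetuses were operated at 105 days of gestation and the adolescents at 6 months of age. In infarcted animals a diagonal branch of the left anterior descending coronary artery was tied off, and tissue was taken 3 days later. Control animals had sham surgery without the ligation, and for these arrays the labels give no time after surgery. The remaining 12 arrays hold border and infarct tissue and serve here only as a reference for scale. The labels give no breed, sex or genotype, and they do not say whether arrays with the same number came from the same animal. If they do not come from separate animals, the p-values measure only the spread between these arrays.

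Remote myocardium keeps its blood supply but works against a changed load, since the infarcted wall no longer contracts. It is also reached by circulating cytokines and by neurohormonal signals such as angiotensin II and catecholamines. In the adult heart it is known for a slow remodelling in which myocytes enlarge, matrix is laid down and fetal contractile genes are used again, while the fetal heart can still enlarge by dividing its myocytes.

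The arrays were 1-colour, with 1 Cy3-labelled RNA on each. The 75th percentile of the signal was 490, 682 and 567 units on the fetal remote arrays and 773, 567 and 752 units on the fetal sham arrays. It was 356, 375 and 307 units on the adolescent remote arrays and 246 and 129 units on the adolescent sham arrays. Fetal remote and fetal sham arrays overlapped, while each adolescent sham array was dimmer than each adolescent remote array. Averaged over both stages, the remote arrays were brighter than the sham arrays by 0.27 on the log2 scale. An exact permutation test over the 200 arrangements within stages gave a two-sided p of 0.4, and the smallest p the design allows is 0.005. The average joins the overlapping fetal arrays with the adolescent arrays, so it holds for neither stage alone. It does not show that brightness was balanced in adolescents. Between 61.0% and 83.7% of the probes were well above background on an array. Every signal below is a log2 value relative to the 75th percentile of its own array, so 0 is a fairly bright probe and values under about -5 lie near the background. The number of arrays limits the precision. The slow myosin heavy chain gene MYH7 was between 2.78 and 5.72, and the myoglobin gene MB between 6.92 and 8.90, on all 11 arrays, so these markers of muscle were bright throughout.

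Between remote and sham muscle, no probe passed the test. Of 11878 tested probes, 0 had an adjusted p under 0.05 in the pooled fit (limma with Benjamini-Hochberg adjustment), which is 0%, and the smallest adjusted p was 0.940. An unadjusted p under 0.05 was reached by 505 probes, or 4.25%, by limma, of which 256 were higher in remote muscle (2.16% of all tested) and 249 lower (2.1%). Among the 774 genes that could be named, 34 had such a p, 15 of them higher and 19 lower. One alternative scaling, quantile normalization, called 1 unnamed probe, A_70_P012333, lower by limma (-1.19 ± 0.13 (SE), adjusted p = 0.0375).

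For most genes the estimates bounded the difference averaged over both stages, though not that of each stage. The median standard error was 0.19 on the log2 scale and the median absolute difference 0.15. For 548 of the 774 genes, or 70.8%, the 95% interval of the difference lay within a 2-fold change in either direction. For 294 genes, or 38.0%, it lay within 1.5-fold. Within stages the median standard error was wider, 0.24 in fetuses and 0.27 in adolescents. Opposite differences in the 2 stages can average to a pooled value near 0.

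Border and infarct tissue differed from sham at many probes. In a limma fit of all 23 arrays with the stages weighted equally, remote against sham again gave 0 of 11878 probes past the threshold (706 at unadjusted p under 0.05). Border against sham gave 2703 probes (22.8%) and infarct against sham 7044 (59.3%). These contrasts share the sham arrays. Tested directly against remote muscle in the same fit, border tissue differed at 2645 probes (22.3%) and infarct tissue at 6897 (58.1%).

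**Figure D1:**
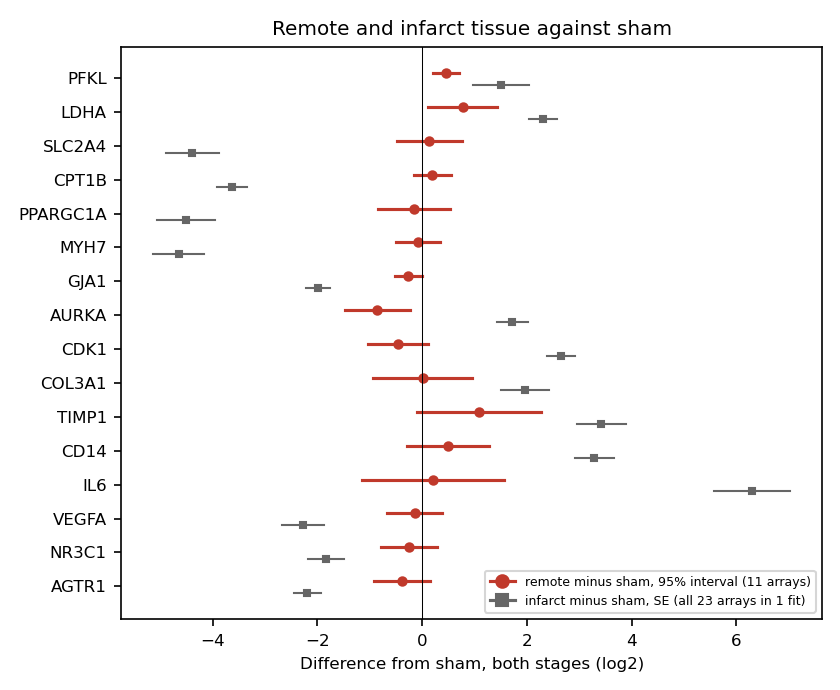
Difference from sham muscle on the log2 scale for 16 named genes, with stages pooled. Red points are remote minus sham with 95% intervals from 11 arrays, and grey squares are infarct minus sham with standard errors from 1 fit of all 23 arrays. The remote points run from -0.86 for AURKA to 1.09 for TIMP1, and infarct values from -4.65 for MYH7 to 6.30 for IL6.

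The fetal and the adolescent differences were nearly uncorrelated across genes. Fetal remote against fetal sham called 0 probes (0%; 210, or 1.77%, at unadjusted p under 0.05, limma). Adolescent remote against adolescent sham also called 0 (0%; 1613, or 13.6%, at unadjusted p under 0.05, smallest adjusted p 0.0720). That count was 553 with array brightness as a covariate, 137 after another background correction (normexp), and 848 and 2152 without the third and the second adolescent sham array. The difference between the stages called 0 (0%; 1045, or 8.8%, at unadjusted p under 0.05, smallest adjusted p 0.281), with 430, 41, 728 and 1702 probes in the same 4 settings. Across the 774 genes the fetal and adolescent differences had a Pearson correlation of 0.02 and a Spearman correlation of 0.06. These points share slides but no arrays between stages, and genes are not independent replicates. The sign agreed between stages for 395 genes, or 51.0%. Of the 210 fetal probes with an unadjusted p under 0.05, 42 (20%) were also among the 1613 adolescent ones, of which they made up 2.60%, and 11 of the 42 had 1 sign in both stages.

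**Figure D2:**
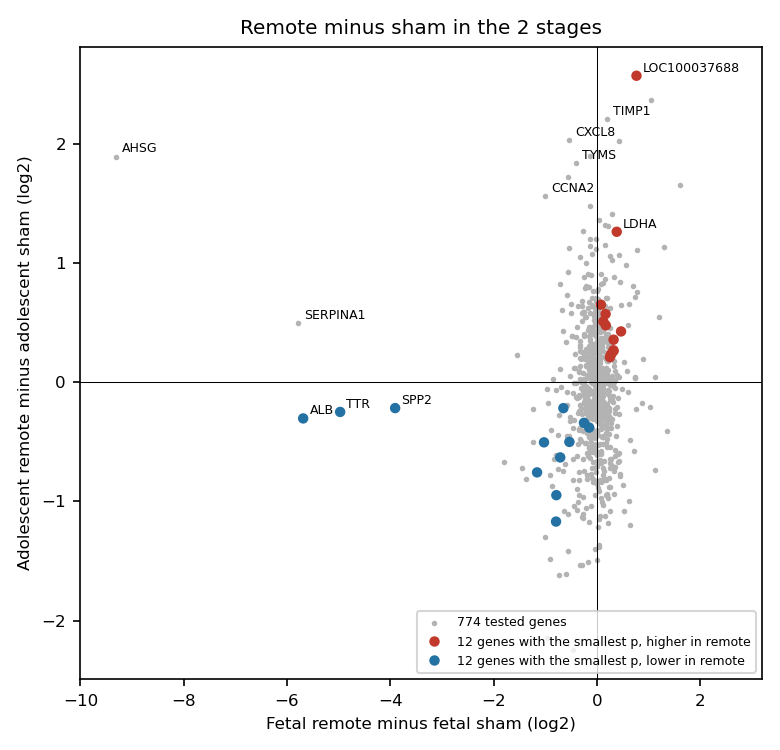
Fetal against adolescent remote-minus-sham difference, both axes in log2, for the 774 tested genes (grey). Red and blue points are the 12 genes higher and the 12 genes lower in remote muscle with the smallest pooled p and 1 sign on all slides; the grey cloud is centred on 0 in both stages, and the liver genes ALB, TTR, SPP2, SERPINA1 and AHSG lie far to the left.

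Each replicate number was hybridized on its own slide, which gives 5 differences between a remote and a sham array of 1 stage on 1 slide (fetal 1, 2 and 3, adolescent 2 and 3). All 5 had the same sign at 801 of 11848 probes, or 6.76%, and at 56 of the 774 genes, or 7.24%. The genes named next are from the 12 of smallest unadjusted p in each direction among those 56. None passed the adjusted threshold, so their values are descriptions. The choice by p and sign favours groups that do not overlap, and the share of all probes without overlap was not counted.

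The gene with the smallest p on the side higher in remote muscle was PFKL, which encodes the liver-type subunit of phosphofructokinase, the committed step of glycolysis. Its signal was 0.87, 0.89 and 0.49 on the fetal remote arrays and 0.42, 0.32 and 0.10 on the fetal sham arrays. On the adolescent remote arrays it was -0.81, -0.89 and -0.90, against -1.31 and -1.28 on the sham arrays. Every remote array lay above every sham array of its stage. The pooled difference was 0.45 ± 0.11 (SE, 6 against 5 arrays; 95% interval 0.20 to 0.70; unadjusted p = 0.00249, adjusted p = 0.940 by limma), 0.47 in fetuses and 0.43 in adolescents. Over the alternative settings it lay between 0.28 and 0.51.

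GRPEL1, a cochaperone of mitochondrial protein import, separated the groups in the same way. It was -0.18, -0.02 and -0.13 on the fetal remote arrays against -0.48, -0.37 and -0.44 on the fetal sham arrays, and 0.34, 0.33 and 0.48 against 0.03 and 0.20 in adolescents. The groups did not overlap in either stage, with a pooled difference of 0.30 ± 0.10 (SE). A second probe of the gene gave 0.27. Infarct tissue lay below remote muscle at this gene by 0.54 (adjusted p = 0.00052, limma).

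LDHA, which encodes the lactate dehydrogenase subunit that favours lactate formation, was 3.64, 4.16 and 3.30 on the fetal remote arrays and 3.59, 3.60 and 2.75 on the fetal sham arrays, which overlapped. In adolescents the remote values of 2.10, 1.37 and 2.72 all lay above the sham values of 0.96 and 0.64. The pooled difference was 0.78 ± 0.30 (SE), with 1.26 in adolescents and 0.39 in fetuses, and the difference between stages did not pass (adjusted p = 0.688, limma). Infarct muscle lay 1.49 above remote muscle (adjusted p = 6.5e-05).

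Apart from the immunoglobulin kappa light chain gene described further on, the other genes named here as higher in remote muscle had differences of 0.24 to 0.35. They included ARL1, a Golgi GTPase (0.30), MRPL32, a mitochondrial ribosomal protein (0.34), and ATP6V1E1, a subunit of the vacuolar proton pump (0.26). The protein kinase AKT1, which carries insulin and growth signals, was at 0.30, BAG6, a chaperone of newly made proteins, at 0.33, the arginine methyltransferase PRMT1 at 0.24 and PYGM, muscle glycogen phosphorylase, at 0.35. MRPL32 was at -0.13 after normexp, which moved the median of all probes to -0.30.

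On the lower side the gene with the smallest p was PMCH, which encodes the precursor of melanin-concentrating hormone, a neuropeptide. It was -3.15, -3.17 and -3.75 on the fetal remote arrays against -2.38, -2.34 and -1.88 on the fetal sham arrays, with no overlap. In adolescents it was -6.08, -6.23 and -5.91 against -4.85 and -5.79, and none of these 5 arrays had the probe well above background. The fetal difference, which alone rests on detected signal, was -1.16 ± 0.28 (SE). The pooled difference was -0.98 ± 0.21 (SE, 95% interval -1.43 to -0.52, unadjusted p = 0.000662 by limma). That pooled value and its p also draw on the adolescent arrays, where the probe lay near the background. Another probe gave a pooled difference of -0.90. Infarct tissue lay 2.41 above remote muscle at PMCH (adjusted p = 4.3e-07, limma).

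NPY1R, a receptor for neuropeptide Y, was close to background. Its signal was -6.68, -6.59 and -6.12 on the fetal remote arrays and -6.53, -5.22 and -5.27 on the fetal sham arrays. It was -6.23, -6.56 and -6.19 against -5.18 and -5.13 in adolescents. Only 2 of the 11 arrays, both fetal sham, had the probe well above background, so no fold change is given. The probe was bright enough to be tested through sham arrays alone, which favours a lower value in remote muscle.

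AURKA, a kinase of the mitotic spindle, was -2.67, -2.92 and -3.20 on the fetal remote arrays against -2.56, -2.25 and -1.63 on the fetal sham arrays. In adolescents it was -4.19, -4.49 and -5.29 against -4.35 and -3.07. In fetuses all remote values were below all sham values, and in adolescents 1 remote array was above 1 sham array. The pooled difference was -0.86 ± 0.28 (SE, unadjusted p = 0.0122), and -0.19 with the deposited values. The spindle-binding hyaluronan receptor HMMR (-0.67 ± 0.30) and the mitotic kinase CDK1 (-0.46 ± 0.26) were chosen by the same rule. Their lower values on all 5 slides follow from that choice.

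**Figure D3:**
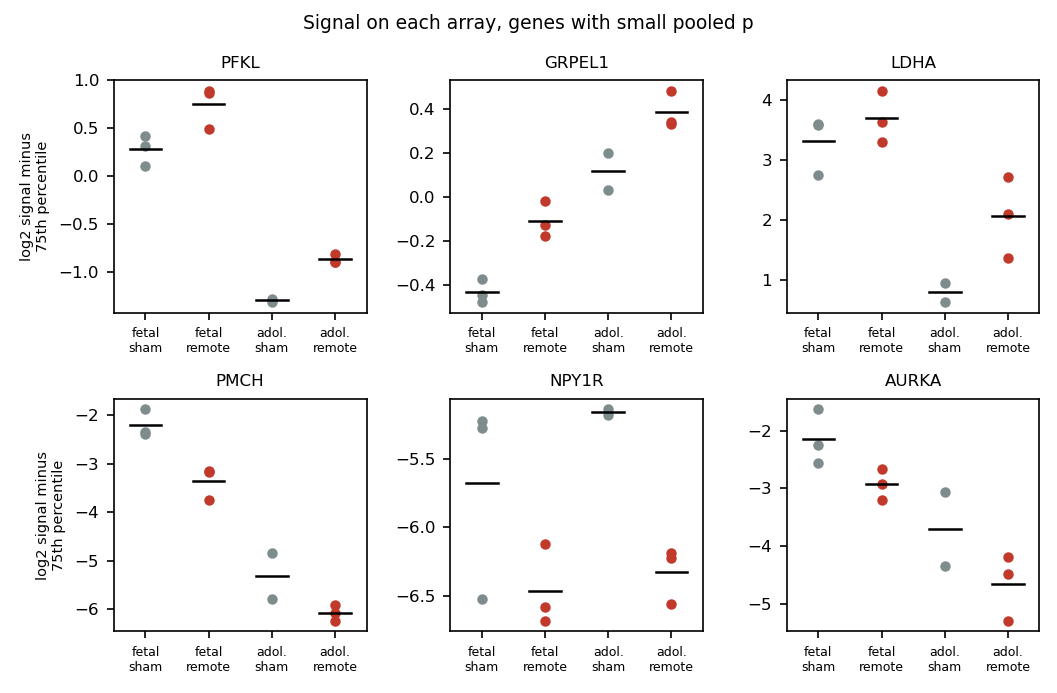
Log2 signal relative to the array's 75th percentile on each of the 11 arrays for 6 genes; points are arrays, and bars are group means. PFKL, GRPEL1 and PMCH show no overlap between remote and sham within either stage, with pooled differences of 0.45, 0.30 and -0.98. These genes were chosen by small p and 1 sign on all slides, which favours such separation. No adolescent array had PMCH well above background, so its separation there lies among background values.

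The remaining genes on the lower side were FLT3LG, a growth factor of dendritic and blood progenitor cells (-0.29), GSTA1, a glutathione transferase (-0.52, and -0.19 with the deposited values), and SLC5A8, a monocarboxylate transporter (-0.25, and -0.01 after normexp). PTGER1, a prostaglandin E receptor, was well above background on only 2 of the 11 arrays, both fetal sham, so no fold change is given. Like NPY1R, it was bright enough to be tested through sham arrays alone. The others were 3 liver-secreted proteins, ALB, TTR and SPP2, which are described with the liver genes.

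Most probes carry no gene name, and some of the smallest p-values fell on them. The first 30 bases of 4 such probes are given because the sequence is their identity here: 2 of them had the smallest p higher in remote muscle and 2 the smallest p lower, all with 1 sign on all 5 slides. They are printed from the 5′ end as the scanner files give them, with no part marked.

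A_70_P010681: cttgagcaaactgaagtatttctgggagca
A_70_P026351: attattactgtgcgtcttatgacagcagta
A_70_P001481: gtatgatttttctatttttattttttcaca
A_70_P052081: acatttctctgatgtaatttccatgagact

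A_70_P001481 was at -5.09, -6.30 and -5.52 on the fetal remote arrays, none well above background, and at -4.85, -4.32 and -4.11 on the fetal sham arrays. In adolescents it was at -4.41, -4.85 and -4.58 against -3.56 and -3.65, so the groups did not overlap in either stage. For A_70_P052081 the difference was -0.68 ± 0.14. A_70_P010681 had a difference of 0.43 ± 0.11, and its fetal remote values of -0.15, 0.09 and -0.08 lay above the sham values of -0.45, -0.76 and -0.38, as its adolescent remote values of 0.02, 0.06 and 0.11 lay above -0.33 and -0.28. A_70_P026351 is described by the array as the variable region of an immunoglobulin light chain. It was well above background on the 3 adolescent remote arrays and on 1 fetal remote array, but on no sham array. It was thus tested through remote arrays alone, which favours a higher value in remote muscle.

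Immunoglobulin transcripts are made by antibody-forming B cells and plasma cells. This group was picked after such values were seen, and its probes share sequence and a source cell, so it was not tested. The array holds 74 probes described as immunoglobulin chains, of which 32 were bright enough to be tested and none passed the adjusted threshold. Of the 32, 11 met the filter through remote arrays alone and 2 through sham arrays alone, which favours their direction. Of the 19 that met it in both tissues, 17 were higher in remote muscle and 2 lower, with a median difference of 0.79. The median difference of all 32, including those that met the filter in only 1 tissue, was 1.07, against -0.01 over all tested probes. After normexp it was -0.47, with 7 of the 32 higher, against -0.30 over all probes. With the deposited values it was 0.20, so the direction of the group depended on the background correction. Only 5 probes were well above background on every array, of which 4 were higher and 1 lower.

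The mu chain is the heavy chain of IgM. One probe of its secreted form was at 1.69, 1.71 and 0.13 on the fetal remote arrays and at -0.41, 0.86 and -1.74 on the fetal sham arrays. In adolescents it was at 3.35, 4.71 and 1.77 against 2.54 and 1.46. The groups overlapped, but remote was higher on all 5 slides, with a pooled difference of 1.46. The kappa light chain LOC100037688 was -2.61, -2.95 and -4.44 against -4.28, -3.49 and -4.53 in fetuses, and -1.55, -0.38 and -0.81 against -2.36 and -4.62 in adolescents. Its difference was 1.57 ± 0.53 (SE) at its brightest probe and 0.23 to 1.57 over its 5 probes.

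Those 5 probes differed in how far they depended on the processing. The mu chain probe above had a difference of 1.46, with 1.55 after normexp and 1.19 with the deposited values. A second probe of the secreted mu chain had 1.15, with 0.50 and 0.63 in those settings. A gamma1 chain probe had 0.84, with 0.36 and 0.61, and a variable region of the mu chain 0.38, with -0.45 and 0.06. A nonfunctional lambda light chain probe was at -0.17, lower in remote muscle on all 5 slides, with -0.06 and -0.09. The median of all probes after normexp was -0.30. Of the markers of T, NK and B cells, 7 of 8 were lower in remote muscle, with a median of -0.23.

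**Figure D4:**
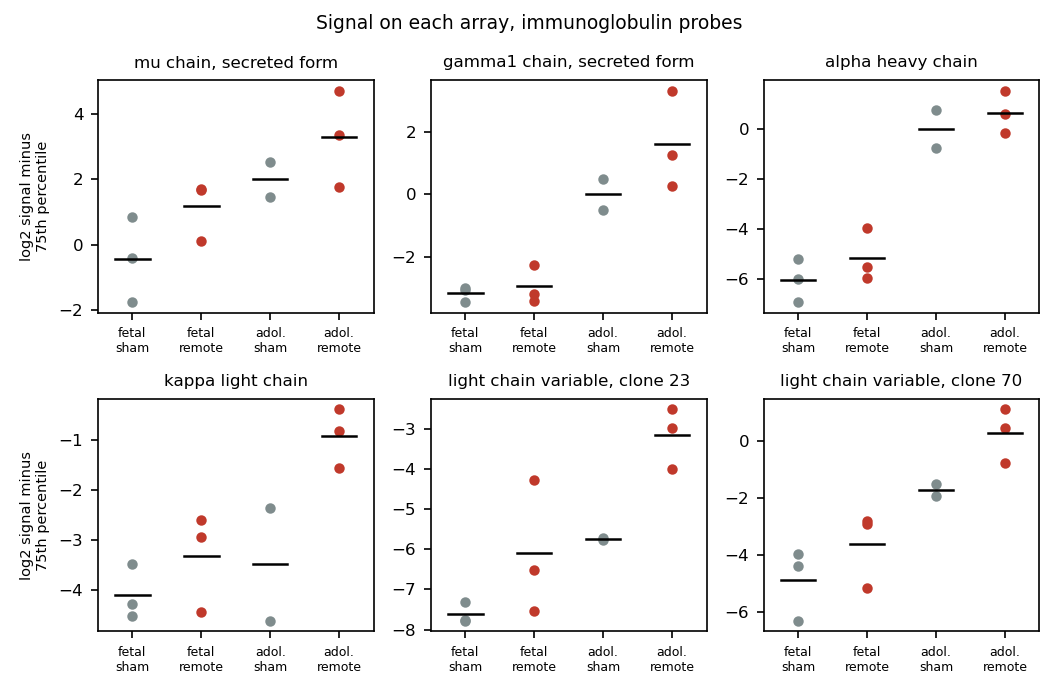
Log2 signal relative to the array's 75th percentile on each array for 6 immunoglobulin probes; points are arrays and bars are group means. The adolescent remote points of the light chain probes lie above the sham points, and the mu chain, with a pooled difference of 1.46, overlaps between groups.

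Gene lists were described by their members, without a set test. Of 41 lists, 36 had at least 3 tested genes. Their medians over the tested members ran from -1.51 (liver-secreted proteins) to 0.59 (complement, 3 genes), against -0.03 over all 774 genes, and no member of any list passed the threshold. The median changed sign over 5 ways of scaling the arrays for 18 of the 36 lists, and relative to the median of all genes for 14. Only 3 of the 36 had 1 sign in all 5 slide medians. In several lists some members met the background filter through sham or remote arrays alone, which favours their direction.

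**Figure D5:**
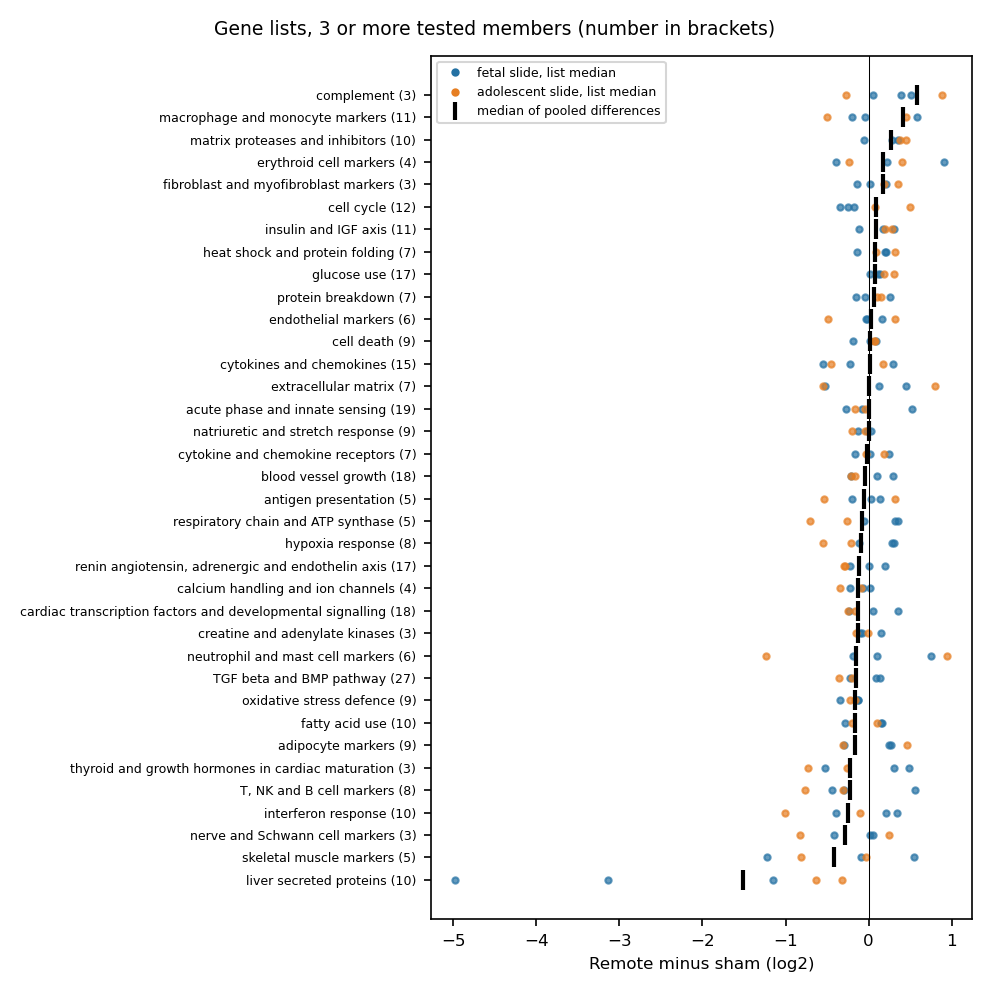
Remote minus sham (log2) for 36 gene lists with at least 3 tested genes. Coloured points are list medians on each of the 5 slides and black bars are medians of the pooled differences; the points spread on both sides of 0 for most lists, and the liver-secreted proteins reach furthest to the left with a pooled median of -1.51.

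Of 17 tested genes of glucose use, 12 were higher in remote muscle and 5 lower, with a median of 0.08 (0.08 to 0.35 over the 5 scalings). The members with the highest differences included LDHA, PFKL and PYGM, described above, ENO3, the muscle enolase (0.25 ± 0.16), and ALDOA, muscle aldolase (0.22 ± 0.14). ENO3 and ALDOA also had 1 sign on all 5 slides. At the lower end, PCK1, the gluconeogenic phosphoenolpyruvate carboxykinase, was at -0.87 ± 0.35, and its second probe at -0.13. The insulin-responsive glucose transporter SLC2A4 was at 0.14 ± 0.28, while infarct tissue lay 4.51 below remote muscle (adjusted p = 4.2e-07, limma).

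Of 10 tested genes of fatty acid use, 3 were higher and 7 lower, with a median of -0.16 (-0.40 to -0.04 over the scalings). Of the 9 that met the background filter in both tissues, 3 were higher and 6 lower. CPT1B, which carries long-chain fatty acids into muscle mitochondria, was at 0.19 ± 0.16 and PPARGC1A, a coactivator of mitochondrial genes, at -0.16 ± 0.31. Infarct tissue lay 3.83 and 4.36 below remote muscle at those genes (both past the limma threshold). The 5 tested genes of the respiratory chain and ATP synthase had a median of -0.08, from -0.34 to 0.03, which changed sign over the scalings. MB, which encodes the oxygen store of the myocyte, was at -0.13 ± 0.13.

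Only 2 sarcomere genes were tested. MYH7 was at -0.07 ± 0.19 and TPM1, which encodes a tropomyosin, at 0.10 ± 0.11, with 95% intervals of -0.49 to 0.35 and -0.14 to 0.34. Of 9 tested genes that answer to stretch, 4 were higher and 5 lower, with a median of -0.00 that changed sign over the scalings. Several classical genes of load, among them NPPA, NPPB, ANKRD1, ACTA1 and ATP2A2, were not analysed here. Connexin 43, encoded by GJA1, the main gap junction protein of the ventricle, was at -0.26 ± 0.12 (unadjusted p = 0.0494) and at 0.04 after normexp. It was 2.78, 2.85 and 2.70 on the fetal remote arrays against 2.78, 2.90 and 3.12, and 1.60, 1.85 and 1.81 against 2.01 and 2.30 in adolescents. The adolescent groups did not overlap, while the fetal groups did.

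No collagen gene passed the test. COL3A1 was at 0.01 ± 0.43 (95% interval -0.94 to 0.96) and COL1A2 at 0.17 ± 0.36, while COL6A1 was at 0.32 ± 0.32. COL2A1, a collagen of cartilage, was well above background on 3 of the 11 arrays. Infarct tissue lay 1.95 and 2.30 above remote muscle at COL3A1 and COL1A2 (adjusted p = 0.00079 and 0.00027, limma). Of 7 matrix genes, 4 were higher and 3 lower, with a median of 0.01 (0.01 to 0.07 over the scalings).

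Of 10 matrix proteases and inhibitors, 9 were higher and 1 lower, with a median of 0.27. After normexp the list median changed sign to -0.21. Relative to the median of all genes it was 0.29, and 0.10 after normexp, which moved the median of all genes to -0.31. TIMP1, an inhibitor of metalloproteinases, was 4.64, 5.90 and 4.17 on the fetal remote arrays and 4.34, 5.95 and 3.86 on the fetal sham arrays, which overlapped. In adolescents it was 6.80, 5.78 and 7.08 against 4.67 and 4.01, with no overlap. The pooled difference was 1.09 ± 0.53 (SE), that of adolescents 2.21 ± 0.69, and the test of the stage difference gave an adjusted p of 0.577 (limma). The lysosomal protease CTSD was at 0.41 ± 0.16 and CTSB at 0.62 ± 0.31. MMP2, the gelatinase of fibroblasts, was at 0.25 ± 0.18.

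In the TGF beta and BMP pathway, 6 of 27 genes were higher and 21 lower, with a median of -0.15 (-0.47 to -0.07 over the scalings) and no unadjusted p under 0.05. Of the 24 that met the background filter in both tissues, 5 were higher and 19 lower. The ligand TGFB1 was at 0.05 ± 0.14, the coreceptor TGFBR3 at -0.44 ± 0.21 and the shared signal carrier SMAD4 at -0.46 ± 0.24. CCN2, a matricellular target of the pathway, was at 0.58 ± 0.56, with 1.48 in adolescents and -0.14 in fetuses.

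Of 17 genes of the renin-angiotensin, adrenergic and endothelin systems, 2 were higher and 15 lower, with a median of -0.11 (-0.46 to -0.06 over the scalings). The median over all 774 genes was -0.03. Of the 14 that met the background filter in both tissues, 2 were higher and 12 lower. The angiotensin receptor AGTR1 was at -0.38 ± 0.24 and the glucocorticoid receptor NR3C1 at -0.25 ± 0.24. Both were lower in adolescents (-0.86 and -0.88) and near or above 0 in fetuses (-0.0046 and 0.25). The stage difference passed for neither (adjusted p = 0.601 and 0.469, limma).

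Of 11 insulin and IGF genes, 9 were higher and 2 lower, with a median of 0.09 (0.02 to 0.27 over the scalings). The growth factors IGF1 and IGF2 were at 0.25 ± 0.41 and -0.00 ± 0.19, and their receptors IGF1R and IGF2R at 0.14 ± 0.25 and 0.17 ± 0.17.

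No inflammatory gene passed the test in remote muscle. Of 15 cytokines and chemokines, 9 were higher and 6 lower, with a median of 0.01 that changed sign over the scalings. IL6 was at 0.20 ± 0.61 with a 95% interval of -1.15 to 1.55, though only 3 of the 11 arrays had it well above background. The neutrophil attractant CXCL8 was at 0.60 ± 0.67. Infarct tissue lay 6.00 and 4.42 above remote muscle at these genes (adjusted p = 9.8e-07 and 1.6e-05, limma).

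Of 11 markers of macrophages and monocytes, 9 were higher and 2 lower, with a median of 0.41. The median was 0.0025 in fetuses and 0.66 in adolescents, and slide medians ran from -0.50 to 0.58. After normexp the pooled median changed sign to -0.22. Relative to the median of all genes it was 0.44, and 0.09 after normexp. The endotoxin coreceptor CD14 was at 0.49 ± 0.35, and at -0.37 after normexp. Its level was -0.20, -2.18 and -1.48 on the adolescent remote arrays against -2.64 and -2.17, so that 1 remote array overlapped the sham range. On the fetal arrays it was -2.59, -3.13 and -3.37 against -2.93, -2.94 and -3.17. CD80, a costimulatory ligand, was well above background on the 3 fetal sham arrays and no other. It was thus tested through sham arrays alone, which favours a lower value in remote muscle, so no fold change is given. The summed level of the 11 markers was 6.66 to 8.64 times the array's 75th percentile in fetal remote and 6.71 to 8.92 times in fetal sham muscle. It was 14.5 to 41.2 times in adolescent remote and 11.2 to 13.4 times in adolescent sham muscle.

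Of 10 genes of the interferon response, 2 were higher and 8 lower, with a median of -0.24 (-0.34 to -0.15 over the scalings). Of 8 genes of the hypoxia response, 2 were higher and 6 lower. HIF1A, the oxygen-sensing transcription factor, was at -0.04 ± 0.16 and its target VEGFA, which drives vessel growth, at -0.14 ± 0.24. PGF, a relative of VEGFA, was well above background on all fetal sham arrays and on no fetal remote array. It was bright enough to be tested through sham arrays alone, which favours a lower value in remote muscle, so no fold change is given.

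Among 12 cell cycle genes, 7 were higher and 5 lower, with a median of 0.09 that changed sign over the scalings. AURKA and CDK1 were lower in both stages, which follows from their choice by 1 sign on all slides. CCNA2, the cyclin of S phase and mitosis, was -1.93, -1.72 and -2.01 on the fetal remote arrays and -1.13, -1.15 and -0.36 on the fetal sham arrays. In adolescents it was -3.999, -4.65 and -5.08 against -6.44 and -5.84. The groups did not overlap in either stage, and they lay in opposite order. The difference was -1.01 ± 0.32 in fetuses. In adolescents no sham array and 2 of 3 remote arrays had CCNA2 well above background, so no fold change is given, and the stage difference did not pass (adjusted p = 0.281, limma). Its fitted pooled value, which rests on those adolescent arrays, was 0.14 and turned to -0.88 after normexp.

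TYMS, thymidylate synthase, which makes a building block of DNA, was -2.21, -2.45 and -1.82 against -1.87, -2.03 and -1.37 in fetuses and -3.59, -4.20 and -3.87 against -5.49 and -5.96 in adolescents. The fetal groups overlapped and the adolescent groups did not. It was not well above background on the adolescent sham arrays, and against the limit of detection the adolescent remote level was at least 1.35-fold higher. The stage difference did not pass (adjusted p = 0.281, limma). SLC39A13, a zinc transporter, had a stage difference of 0.73 ± 0.19 (adjusted p = 0.363).

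In the other direction, the genes with the smallest p of the stage difference were IRAK4, PRKG1, KITLG and CLOCK. IRAK4, a kinase of Toll-like receptor signalling, was at 0.22 in fetuses and -1.18 in adolescents, where remote values of -2.74, -3.13 and -2.82 lay below sham values of -1.81 and -1.61. Its second probe gave a pooled difference of 0.39, against -0.41 here, so the probes disagreed. PRKG1, the cyclic GMP-dependent kinase, was at 0.64 and -1.20, KITLG, the ligand of the KIT receptor, at 0.63 and -0.99, and the circadian factor CLOCK at 0.35 and -0.71. None passed (adjusted p of 0.281 to 0.340, limma).

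Transcripts of several liver-secreted proteins were high on the first and the third fetal sham array. The plasma glycoprotein AHSG was at 7.28, 0.23 and 2.51 on the fetal sham arrays and at -4.14, -6.96 and -6.83 on the fetal remote arrays. On the adolescent arrays it lay between -6.21 and -3.42. ALB, albumin, was at 3.80, -3.01 and 0.04 on the fetal sham arrays against -4.04, -6.56 and -5.64. The first fetal sham array was the highest of the 11 for AHSG, ALB, SERPINA1, TTR and SPP2.

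Of the 10 tested liver genes, 6 met the background filter through sham arrays alone, and of the other 4, 3 were lower in remote muscle. Their summed level was 5.25 to 199 times the array's 75th percentile on the fetal sham arrays and 3.47 to 4.47 times on the fetal remote arrays. It was 2.27 to 2.43 times on the adolescent sham and 2.70 to 6.83 times on the adolescent remote arrays, so the lowest fetal sham array lay within the adolescent remote range. ALB and AHSG were well above background on all 3 fetal sham arrays, 1 of 3 fetal remote arrays and no adolescent sham array. AHSG was at least 1.18-fold higher in adolescent remote than in adolescent sham muscle. Their adjusted p was 0.940 in the pooled fit (limma). SERPINA1, alpha-1 antitrypsin, was well above background on no fetal remote array, and the fetal sham level was at least 18.8-fold higher than the limit there. In tissue pieces, fewer cells of a type and less RNA per cell cannot be told apart, and the part of liver transcripts in other differences of the fetal sham arrays was not tested.

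No marker of another tissue passed the test. Of 5 skeletal muscle genes, 2 met the background filter through sham arrays alone, and 3 were lower, led by MYOD1 at -1.49 ± 0.51, whose second probe gave -0.23. The perilipin PLIN1 of fat cells was at -0.58 ± 0.23. HBB, the beta globin gene, was at 7.19, 7.37 and 6.90 on the fetal remote arrays against 7.91, 7.02 and 6.05, and at -1.51, -0.54 and 0.53 against -1.75 and -1.57 in adolescents. Its pooled difference was 0.60 ± 0.41.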

How the data were processed

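Per the file headers, the authors scanned 1-colour Agilent arrays with Feature Extraction; the deposited intensity (gProcessedSignal) is background-subtracted. The authors also deposited log2 values for 8411 of the 15008 probes, and the submitters' processing notes name limma; the steps behind those values are not given in the sources used here. Here outlier and control spots were left out, log2 intensities averaged per probe and each array's 75th percentile subtracted. Probes well above background on at least 2 arrays of a group were tested (11878) with limma 3.58.1 in R 4.3.3, with stage and zone as terms, or with groups for the contrasts within stages. Genes were named from array annotation and a RefSeq table of ARS-UI_Ramb_v3.0 (1642 probes had 1 name); a gene stands for its brightest tested probe. The genes named are those past the threshold or, where fewer than 12 passed in a direction, of smallest p with 1 sign on all 5 slides, up to 4 members of each list by moderated t, 4 with the smallest p of the stage difference each way, and a fixed set of 40 of which 26 were tested. One gene that the rule chose is not reported here. The members and lists were chosen with earlier results of these data known. The fits were tested on simulated data. The first adolescent sham sample is not analysed here.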

Additional observations from a re-analysis of the deposited data

How the results depend on the processing

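No probe was called in the pooled comparison under the other settings and with each array left out, by limma, apart from quantile normalization with 1. Fetal remote against sham called 1 with the deposited values and 2, both AHSG probes, with all 23 arrays in the fit. Adolescent remote against sham called 2 under quantile normalization and 2 with all 23 arrays. Leaving out an array gave 0 to 29: 29 without the second and 4 without the third adolescent sham array, each of which leaves 1 sham array assumed to vary like the other groups. The stage difference called 1 with all 23 arrays, and 0 to 2 with an array left out, the 2 without the third adolescent sham array. The cause was not tested. Normexp moved the median of all probes by -0.30 and gave -0.13 for MRPL32, -0.88 for CCNA2 and 0.0434 for GJA1, each of the opposite sign. Of 4237 values of the genes chosen by the rule under alternatives, 170 had another sign than the main value. Counted by gene, 64 of the 166 chosen genes changed sign under at least 1 alternative. Among the 24 genes of smallest p, 2 did so. The brightness difference averaged over both stages was -0.0165 to 0.3997 with an array left out, the lowest without the third adolescent sham array. With the slide as replicate block the pooled comparison again called 0 (686 at unadjusted p under 0.05 for the fixed block, 571 for the random one). Deviations of same-numbered remote and sham arrays of 1 stage correlated at 0.08 to 0.55, with a mean of 0.33. The mean was 0.18 for same-numbered arrays of any groups and -0.09 for arrays of other numbers. The arrays of 1 slide thus tended to vary together. The main fit did not take the numbers as pairs, since the labels do not give them as such. The adolescent differences rest on 2 sham arrays, on which 69.2% and 61.0% of the probes were well above background.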
